A study of Mus musculus with 14 samples.

Results

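Tuft cell genes were followed in the gut of WT mice and of mice lacking miR-29a and miR-29b-1 (MiR-29ab1-/-, called KO in the plots and below). The set held 36 genes, chosen by name because they mark tuft cells, carry their taste-type signalling or make their lipid mediators. The choice was made with earlier results of these data known. All 36 were found by symbol in both deposited count tables. These list 55889 genes for the mice without DSS and 54721 for the mice given DSS. Of the 36, 21 were listed by hand as rarely made by leukocytes and are termed tuft-restricted below. The term is loose, since some leukocytes and other gut cells can make some of them (Ffar3 in enteroendocrine cells, for example). The other 15 were listed as also made by leukocytes. A filter on low counts kept 34 members for testing in every fit, and Il25 and Gng13 fell below it.

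Bulk RNA was sequenced from 14 C57BL/6N mice. There were 4 WT and 4 KO mice without DSS, and 3 WT and 3 KO mice given dextran sulfate sodium (DSS), a polysaccharide that injures the colonic epithelium, at 3.5% in the drinking water for 3 days. The deletion is germline, so every cell type of a KO mouse carries it, and both sexes were used, with no sex or age given per library. Each library is labelled as a separate mouse, and the spread between mice is the error used throughout. The study reports leaving a WT and a KO sample out of its analysis, without saying which. Its figure legends give 4 mice per group without DSS and 3 after DSS, the numbers used here. Library totals were 14231157 to 18185020 reads without DSS, where each WT library was larger than each KO library, and 20076719 to 23153149 reads after DSS. The labels give small intestinal crypts as the tissue while the study describes colon. The colonic transporter Slc26a3 was at 223 to 610.4 CPM (read counts scaled to library size with TMM factors) over the 14 mice and the distal colon factor Hoxb13 at 98.8 to 253 CPM, whereas lactase (Lct), a small intestinal enzyme, stayed at or below 0.33 CPM. The small intestinal sucrase Sis was at 0.338 to 10.3 CPM and the ileal bile acid-binding protein Fabp6 at 1.5 to 29.4 CPM. These genes were picked after their values were seen. Defining markers of smooth muscle were low, with a list sum of 11.4 to 29.4 CPM against 10207 to 21304 CPM for 7 epithelial genes. The deleted precursors are too short for these libraries to check the genotype (0 reads of Mir29a in all mice), but the neighbouring transcript Lncpint was at 0.251 to 1.28 CPM in WT and 29.4 to 201 CPM in KO mice, so no library went against its label.

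Tuft cells are rare, solitary epithelial cells with a brush of thick microvilli. They sense luminal succinate and other metabolites through receptors coupled to the taste signalling chain, which ends in the cation channel Trpm5, and they answer with IL-25, acetylcholine and cysteinyl leukotrienes or prostaglandins. The transcription factor Pou2f3 is required for their formation, and IL-25 made by them drives type 2 innate lymphoid cells whose IL-13 in turn expands the tuft lineage. In bulk RNA, more tuft cells and more tuft RNA per cell cannot be told apart.

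The miRNAs of the deleted locus share their seed. It is also the seed of miR-29c-3p, which lies on chromosome 1, so the deletion leaves a gene with this seed in place. The mature sequences from the deleted locus are shown 5′ to 3′ from RefSeq (GRCm38.p6, chromosome 6, minus strand). The seed, bases 2 to 8, is in capitals.
miR-29a-3p: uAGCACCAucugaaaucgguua
miR-29b-3p: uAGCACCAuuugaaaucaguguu
The 7 letters that pair with this seed, TGGTGCT, were searched in the longest annotated 3′ UTR of each gene (GENCODE vM21, GRCm38). Of 36 members, 1 held them, which is 2.78%, against 1931 of 12652 genes tested without DSS that have such a UTR, or 15.3%. The members' UTRs were shorter, with a median of 642 bases against 1145. The match lies in Bmx, a kinase of the Tec family, at chrX:164193132-164193138 on the minus strand, 598 bases into a UTR of 894 bases. It is shown with its flanks and the match in capitals.
Bmx: aaaaggtggctTGGTGCTtaagaacaccg
A match of letters is a description, and binding was not measured.

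Pou2f3 belongs to the POU family, whose members read octamer letters. ATGCAAAT and its inner part ATGCAAA were searched on both strands in RefSeq promoter windows of 300 bases (250 before and 50 after a gene's start, GRCm38.p6), where 31 of the 36 members have a window. Pou2f3, Il25, Alox5ap, Lrmp and Cd24a have none in the reference table. The whole octamer was in 3 of these 31 members, or 9.68%, against 532 of 27025 genes, or 1.97%. The shorter letters, which include every octamer match, were in 5 members, or 16.1%, against 5.24% of genes. The members with the octamer were Sucnr1, Hpgds and Kctd12, and those with the shorter letters alone were Avil and Ffar3. The RNA of 3 of them was higher in KO mice without DSS at an unadjusted p below 0.05 (edgeR). This cutoff was passed in that direction by 16 of 34 tested members and by 2.09% of all genes. Hpgds and Ffar3, with log2 fold changes of 0.13 and 0.45, did not pass it. A link between the letters and genotype was not tested. The 250 bases before the start are shown for the 3 that passed the cutoff, with the matched letters in capitals. The stretches lie at chr3:60081619-60081868 (Sucnr1, plus strand), chr14:102982638-102982887 (Kctd12, minus strand) and chr10:127000459-127000708 (Avil, plus strand).
Sucnr1: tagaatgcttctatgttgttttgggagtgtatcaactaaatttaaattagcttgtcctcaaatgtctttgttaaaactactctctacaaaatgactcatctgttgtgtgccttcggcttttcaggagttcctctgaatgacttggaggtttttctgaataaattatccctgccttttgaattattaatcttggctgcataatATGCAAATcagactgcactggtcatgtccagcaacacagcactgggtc
Kctd12: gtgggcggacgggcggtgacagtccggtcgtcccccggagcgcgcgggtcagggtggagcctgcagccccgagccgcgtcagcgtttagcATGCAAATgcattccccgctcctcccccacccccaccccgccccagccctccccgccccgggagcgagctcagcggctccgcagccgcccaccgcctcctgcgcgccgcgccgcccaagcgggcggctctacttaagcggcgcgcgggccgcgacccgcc
Avil: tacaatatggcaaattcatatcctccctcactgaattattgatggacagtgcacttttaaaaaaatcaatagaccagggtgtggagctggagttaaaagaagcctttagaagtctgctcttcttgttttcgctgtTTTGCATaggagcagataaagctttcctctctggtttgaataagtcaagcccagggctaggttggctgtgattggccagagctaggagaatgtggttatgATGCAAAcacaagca
In Sucnr1 the octamer began 48 bases before the start, in Kctd12 160 bases before it, and Avil held the shorter letters in both orientations, 115 and 15 bases before it. The absence of a match in the others says nothing of the factor.

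Levels were compared between members only per length, as CPM per kilobase of the gene length in the tables. In WT mice without DSS, Cd24a, a surface glycoprotein also found on immature epithelium and leukocytes, was far above the rest at 255 ± 29.9 CPM per kb (SD, n = 4). Kctd12, an auxiliary subunit of GABA-B receptors, followed at 12.8 ± 1.76, and then the adaptor Sh2d6 at 12.2 ± 4.03. At the other end were Chat, which makes acetylcholine, at 0.391 ± 0.211, the succinate receptor Sucnr1 at 0.23 ± 0.146 and the cytokine Il25 at 0.158 ± 0.185 CPM per kb. Of the 35 pairs of neighbours in this order, 33 had ranges over mice that overlapped, so the order is loose except at its top. Because Cd24a outweighs the other members, summed levels below use the 21 tuft-restricted members, which do not include it. Kctd12 alone made up 32.2% of that sum in WT and 30.7% in KO mice without DSS.

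Without DSS, tuft cell genes stood higher in KO than in WT mice as a set of small differences in the same direction. The tuft-restricted members summed to 168, 248, 288 and 261 CPM in the 4 WT mice and to 300.2, 371, 337 and 439 CPM in the 4 KO mice. The lowest KO mouse was above the highest WT mouse. The group means were 241 ± 51.8 and 362 ± 59.1 CPM (SD, n = 4 each). After DSS the same sum was 116, 97.5 and 195 CPM in WT and 113, 146 and 170.1 CPM in KO mice, and the groups overlapped fully.

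**Figure D1:**
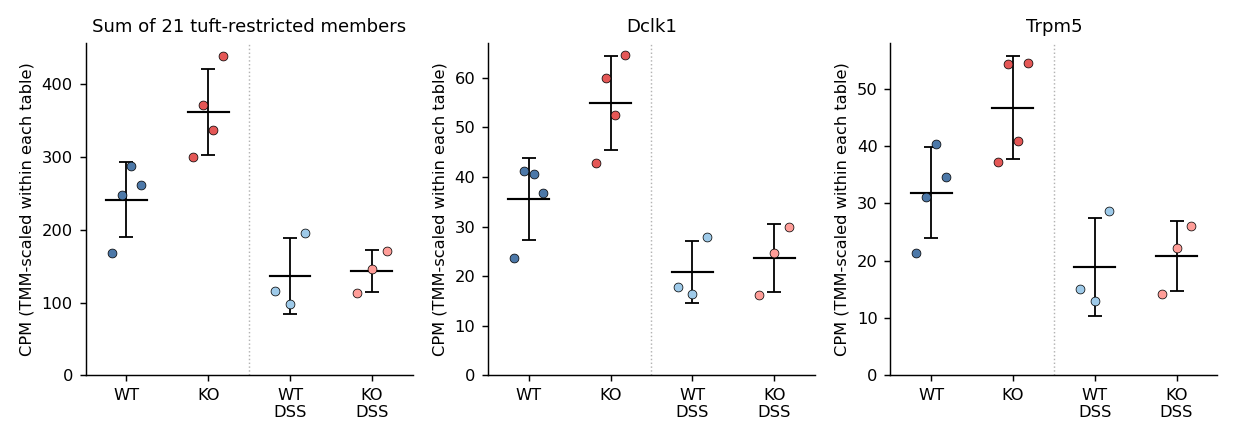
Summed CPM of the 21 tuft-restricted members (left) and CPM of Dclk1 and Trpm5 (middle, right) in each of the 14 mice, with the group mean and SD as bars. Without DSS the 4 KO mice lie at 300.2 to 439 in the sum, above the WT range of 168 to 288, while after DSS the WT range of 97.5 to 195 spans the KO range of 113 to 170.1.

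In the edgeR quasi-likelihood fit of KO against WT without DSS, 33 of 34 tested members had a positive log2 fold change, with a median of 0.51 against 0.00 over all 15441 genes. Members tended to be high or low together in a mouse. Counts of members, here and below, are thus not counts of independent observations. The set was also chosen with earlier results of these data known, so its shares against all genes are a description. At an unadjusted p below 0.05, here termed called, 16 members were higher and 0 lower in KO mice, where 2.09% of all genes were called higher and 1.58% lower. In 11 members each KO mouse was above each WT mouse, against 1.11% of all genes, and in 0 members each was below, against 0.92%. No member passed an adjusted p of 0.05, which 0.0194% of all genes did, and the adjusted p of the 16 called members ran from 0.741 for Avil, 0.779 for Lrmp and 0.879 for Ptgs1 to 1. DESeq2 on the same counts gave 17 members higher at the unadjusted cutoff and 1, Avil, past the adjusted one. The 19 tested tuft-restricted members and the 15 shared with leukocytes were alike in share, with 9 and 7 members called and medians of 0.56 and 0.46.

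Of the 7 canonical markers 5 were called, Dclk1, Avil, Lrmp, Kctd12 and Siglecf. Dclk1, a microtubule-associated kinase and the most used tuft cell marker, was at 23.6, 41.2, 40.6 and 36.8 CPM in WT mice and 42.9, 60, 52.6 and 64.6 CPM in KO mice. The groups did not overlap, and the log2 fold change was 0.63 (SE 0.19). Avil, which encodes the actin-bundling protein advillin of the tuft brush, was at 12.6, 15.4, 20.1 and 13.5 CPM in WT and 23.1, 27, 23.6 and 32.3 CPM in KO mice. Avil had the smallest adjusted p of the set, with no overlap and a log2 fold change of 0.78 (SE 0.17). Lrmp, an endoplasmic reticulum protein abundant in tuft cells and in lymphocytes, was at 28.8, 24.6, 30.2 and 27.8 CPM in WT and 43.5, 37.2, 34 and 42.6 CPM in KO mice, again without overlap (log2 fold change 0.50, SE 0.11). Kctd12 was at 62.4, 80.3, 87.2 and 81.1 CPM in WT and 95.3, 98, 114 and 137 CPM in KO mice (0.51, SE 0.14). The WT mouse with the lowest Kctd12 was also the lowest for Dclk1 and Avil. Siglecf, a sialic acid-binding lectin shared with eosinophils, overlapped between groups, at 3.03, 5.73, 5.83 and 4.96 CPM in WT and 4.94, 6.7, 9.08 and 9.32 CPM in KO mice (0.62, SE 0.27). Cd24a was the only tested member with a negative value, at 579 to 737 CPM in WT and 579 to 764 CPM in KO mice (-0.03, SE 0.13). Nrgn, a calmodulin-binding protein, ranged from 0.775 to 1.93 and from 1.9 to 2.64 CPM.

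Among the 4 transcription factors, Gfi1b and Spib were called. Gfi1b, a zinc finger repressor that in the gut marks tuft cells, was at 0.661, 1.13, 0.61 and 0.669 CPM in WT and 1.35, 1.46, 1.33 and 2.29 CPM in KO mice. Its groups were apart, at a log2 fold change of 1.06 (SE 0.34). Spib, an Ets factor of tuft cells, M cells and B cells, was at 9.47, 13.6, 12.1 and 11.3 CPM in WT and 19.3, 16.6, 14.7 and 26 CPM in KO mice (0.72, SE 0.19). Pou2f3 overlapped, at 2.42, 5.25, 6.1 and 4.51 CPM in WT and 4.94, 6.27, 5.65 and 8.39 CPM in KO mice. Its log2 fold change of 0.46 (SE 0.29) did not pass the test. Hmx2, a homeobox factor, was at 0.661 to 2.34 and 1.89 to 3.58 CPM (0.77, SE 0.38).

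Of the 7 tested genes of the chemosensory chain, Trpm5 and Sucnr1 were called. Trpm5 was at 21.4, 31.1, 40.4 and 34.6 CPM in WT and 37.2, 54.4, 40.8 and 54.5 CPM in KO mice. Only 1 WT mouse reached into the KO range (log2 fold change 0.55, SE 0.20). Sucnr1 had the largest fold of the set, at 0.165, 0.179, 0.555 and 0.613 CPM in WT and 1.01, 0.609, 1.27 and 1.65 CPM in KO mice (1.56, SE 0.51). Sucnr1 rests on few reads, as 3 reads amount to 0.165 to 0.215 CPM in these libraries. Gnat3, the alpha subunit of gustducin, was at 1.32, 2.56, 3.33 and 3.45 CPM in WT and 3.72, 4.26, 4.51 and 3.8 CPM in KO mice, without overlap but short of the cutoff (0.61, SE 0.30). Plcb2, the phospholipase that follows gustducin, was at 9.47, 9.6, 11.9 and 6.24 CPM in WT and 7.71, 14.1, 11.3 and 18.2 CPM in KO mice (0.46, SE 0.27). The taste receptor subunit Tas1r3, the short-chain fatty acid receptor Ffar3 and the G protein regulator Rgs13 had log2 fold changes of 0.33, 0.45 and 0.56 with overlapping groups. Gng13, the gustducin gamma subunit, had 3 to 10 reads a mouse.

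Of the 5 enzymes and partners of eicosanoid synthesis, Ptgs1 and Alox5 were called. Ptgs1, cyclooxygenase 1, was at 2.75, 3.22, 4.72 and 3.51 CPM in WT and 5.48, 6.46, 6.47 and 8.46 CPM in KO mice, without overlap. Its log2 fold change was 0.92 (SE 0.23). Alox5, the 5-lipoxygenase that starts leukotriene synthesis, was at 5.95, 12.2, 12.3 and 12.1 CPM in WT and 13, 17.3, 13 and 18.5 CPM in KO mice (0.54, SE 0.23). Its groups did not overlap, but the lowest KO mice and 3 of 4 WT mice lay close. Its partner Alox5ap was at 1.87, 2.45, 2.28 and 3.73 CPM in WT and 4.26, 3.84, 2.73 and 3.73 CPM in KO mice (0.49, SE 0.27). The leukotriene C4 synthase Ltc4s was at 1.21, 0.954, 1.5 and 2.01 CPM in WT and 1.89, 2.13, 0.952 and 2.8 CPM in KO mice (0.45, SE 0.37). The prostaglandin D synthase Hpgds, shared with mast cells, was at 16.4, 10.1, 13.6 and 13.1 CPM in WT and 15.1, 15.9, 10.8 and 16.6 CPM in KO mice (0.13, SE 0.18), and its groups overlapped throughout. Outside the set, 8 of 14 further eicosanoid genes were tested and 0 were called in either direction, with a median of 0.00. Of all genes 2.09% were called higher and 1.58% lower.

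Of the 9 adaptors and kinases of immune-type signalling 5 were called, Bmx, Sh2d7, Matk, Plcg2 and Vav1. Bmx was at 2.31, 5.31, 4.55 and 5.29 CPM in WT and 9.06, 8.22, 6.79 and 10.4 CPM in KO mice. The groups were apart, at a log2 fold change of 0.98 (SE 0.27). Sh2d7, an SH2 adaptor, was at 8.31, 16.3, 16.9 and 16 CPM in WT and 18.7, 21.1, 18.2 and 22.9 CPM in KO mice (0.49, SE 0.21), also without overlap. Matk, an inhibitor of Src kinases, was at 6.39, 7.81, 11.4 and 11.9 CPM in WT and 11.8, 14.6, 11.9 and 16.1 CPM in KO mice (0.54, SE 0.21). Plcg2, a phospholipase of immune receptors, was at 17.6, 19.4, 18.1 and 18.4 CPM in WT and 17.6, 22, 25.8 and 30.7 CPM in KO mice (0.39, SE 0.16). The guanine exchange factor Vav1, which leukocytes also make, was at 20, 14.4, 15.9 and 13.9 CPM in WT and 20.2, 17.2, 19.5 and 34.5 CPM in KO mice (0.51, SE 0.22). Vav1, Plcg2 and Matk each overlapped between the genotypes. The other adaptors, Sh2d6, Fyb, Inpp5d and Skap2, had log2 fold changes of 0.69, 0.45, 0.39 and 0.03, and none reached the cutoff.

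Of the effector genes, Il25 gave 0, 1, 8 and 3 reads in WT and 7, 1, 6 and 3 reads in KO mice, too few to compare. Il17rb, the IL-25 receptor chain, was at 2.64, 3.76, 5.16 and 4.68 CPM in WT and 3.85, 7.31, 4.19 and 5.88 CPM in KO mice (0.39, SE 0.28). Chat was at 1.31 to 3.33 and 1.69 to 4.09 CPM (0.68, SE 0.40).

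**Figure D2:**
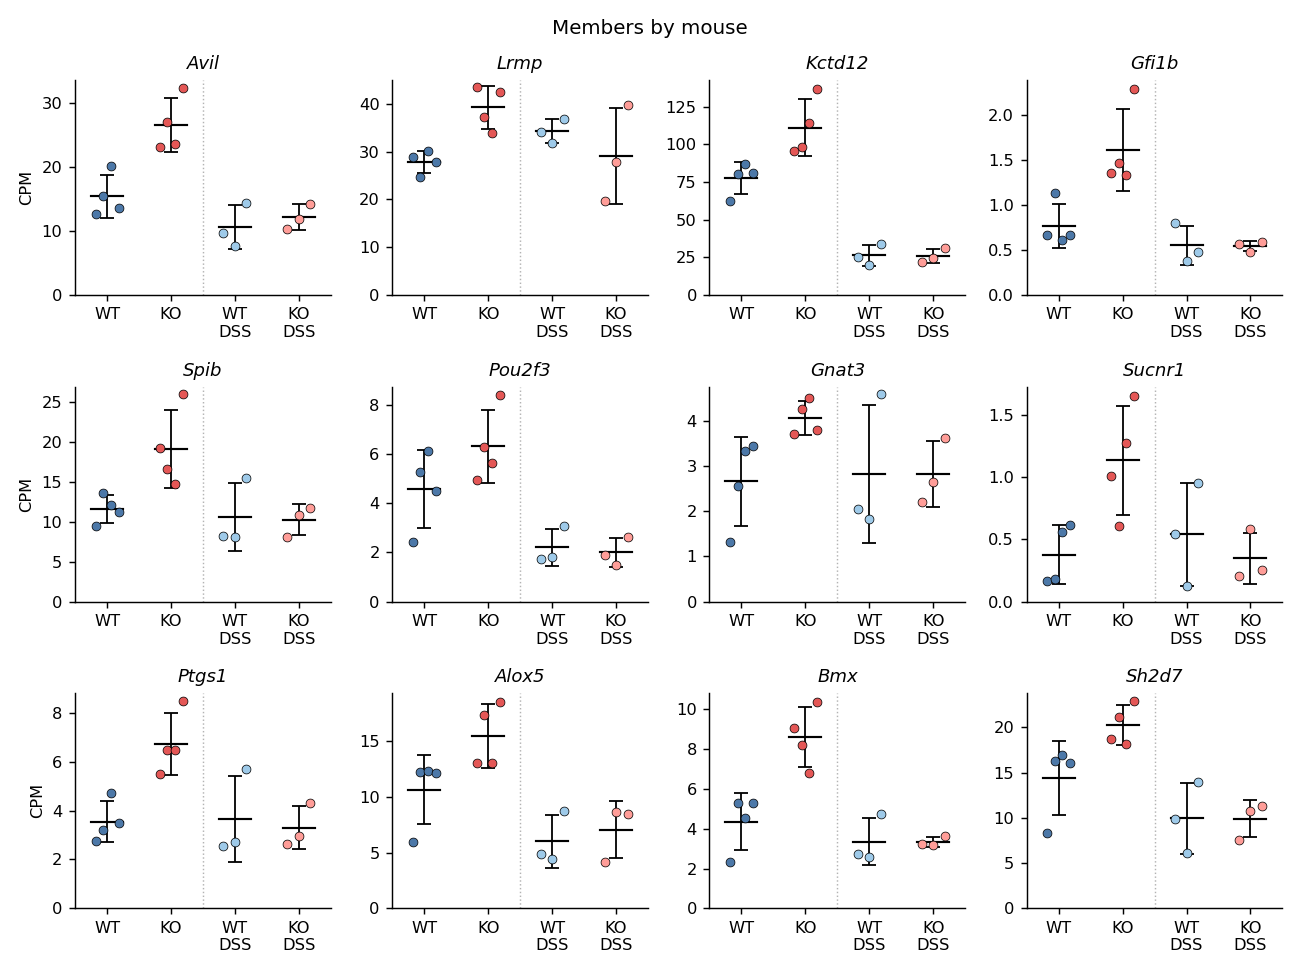
CPM of 12 members in each mouse, with the group mean and SD, for WT and KO mice without DSS (left of the dotted line) and after DSS (right). Without DSS all KO mice lie above all WT mice in each panel except Pou2f3 and Sucnr1; after DSS the groups overlap in every panel.

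Libraries within a genotype were not alike. WT mouse 1 had the lowest value of its group in 23 of 34 tested members, and KO mouse 4 the highest of its group in 26. WT mouse 1 also had the lowest goblet cell marker sum of its group, 23439 CPM against 36865 to 55277 CPM in the other WT mice. KO mouse 4 and WT mouse 1 had the highest T cell marker sums, 83.9 and 72 CPM against 15.3 to 39.9 CPM in the other 6 mice, and the B cell sum of KO mouse 4 was 23.6 CPM against 3.55 to 12.6 CPM in the others. The part of the T cell and goblet differences in the result was not tested beyond leaving mice out. Without KO mouse 4 the number of members called higher was 9, with 34 of 34 positive and a median of 0.46, and without both mice it was 8, with 33 of 34 positive and a median of 0.34. The 8 were Avil, Lrmp, Kctd12, Dclk1, Spib, Bmx, Ptgs1 and Vav1. With a B cell score as a covariate 15 members were called. The shares of all genes called in such alternative fits, DESeq2 included, are not given here or below. Their member counts thus have no background to be set against. Enteroendocrine markers moved the other way, with sums of 216 to 299 CPM in WT and 119.6 to 173 CPM in KO mice.

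**Figure D3:**
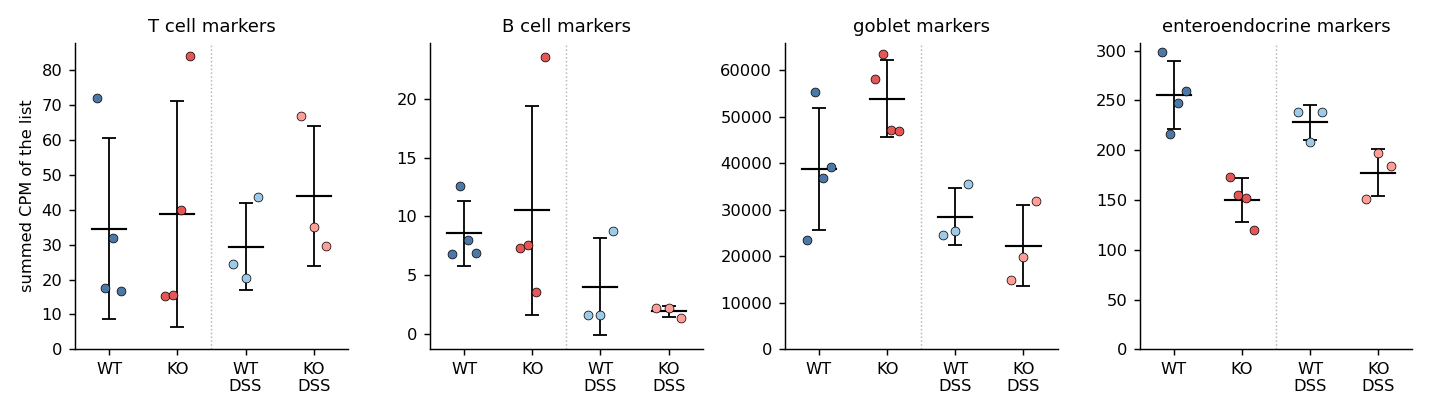
Summed CPM of the T cell, B cell, goblet and enteroendocrine marker lists in each mouse, with group mean and SD. KO mouse 4 and WT mouse 1 stand highest in T cell markers without DSS (83.9 and 72 CPM), and WT mouse 3 is highest in B cell markers after DSS (8.78 CPM).

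Genes near the set were looked at by lists. Of 20 other genes reported in tuft cells, 17 were tested, 15 were positive and 4 were called higher, 0 lower, with a median of 0.20. Over all genes, 49.5% were positive, 2.09% were called higher and 1.58% lower. The 4 tuft genes called were Pik3cg and Pik3r5, the catalytic and regulatory chains of phosphoinositide 3-kinase gamma (0.69, SE 0.14, and 0.79, SE 0.20), the lipid receptor Cd300lf (0.70, SE 0.26) and the membrane protein Tmem176a (0.26, SE 0.11). Tas1r2 was at 0 reads in all mice. In the circuit between tuft cells and type 2 innate lymphoid cells, 8 of 17 genes were tested and 2 were called higher, the IL-4 and IL-13 receptor chains Il4ra (0.28, SE 0.09) and Il13ra1 (0.31, SE 0.13). The type 2 cytokines themselves were at the floor, with 0 reads of Il5, 0 or 1 of Il13 and 3 to 9 of Il4 a mouse.

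After DSS the tuft cell genes did not separate the genotypes. Of 34 tested members 17 were positive and 17 negative, with a median log2 fold change of 0.00 against -0.01 over 14908 genes. Skap2, an adaptor also made by leukocytes, was called higher and Cd24a lower, against 3.98% and 3.25% of all genes, and no member passed an adjusted p of 0.05, which 0.0134% of genes did. In 0 members were the genotypes apart, against 5.33% of genes that were higher and 6.28% that were lower in each KO mouse. Skap2 was at 65.6, 73.3 and 64.7 CPM in WT and 90.5, 96.7 and 70 CPM in KO mice (0.34, SE 0.13). Cd24a was at 347, 238 and 336 CPM in WT and 175, 166 and 256 CPM in KO mice (-0.62, SE 0.21). In both genes 1 KO mouse lay within the WT range. Dclk1 was at 17.9, 16.5 and 28 CPM in WT and 16.3, 24.7 and 29.9 CPM in KO mice, with a log2 fold change of 0.19 (SE 0.27). Trpm5 was at 15.1, 13 and 28.7 CPM in WT and 14.2, 22.3 and 26.1 CPM in KO mice (0.14, SE 0.36), and Pou2f3 at 1.72, 1.8 and 3.08 CPM in WT and 1.9, 1.48 and 2.62 CPM in KO mice (-0.12, SE 0.36).

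The remaining members overlapped in the same way. Ptgs1 was at 2.55, 2.72 and 5.69 CPM in WT and 2.62, 2.97 and 4.29 CPM in KO mice, Spib at 8.25, 8.08 and 15.5 CPM in WT and 8.08, 10.9 and 11.8 CPM in KO mice. Sucnr1 was at 0.544, 0.126 and 0.949 CPM in WT and 0.206, 0.583 and 0.25 CPM in KO mice. In each of these genes WT mouse 3 was the highest of the 6 mice. Gnat3 was at 2.05, 1.84 and 4.6 CPM in WT and 2.21, 2.65 and 3.62 CPM in KO mice, Plcb2 at 4.48, 2.51 and 5.08 CPM in WT and 4.27, 4.51 and 4.45 CPM in KO mice. Alox5 was at 4.9, 4.39 and 8.73 CPM in WT and 4.12, 8.59 and 8.45 CPM in KO mice, and Il17rb at 1.13, 2.22 and 3.89 CPM in WT and 1.8, 2.49 and 2 CPM in KO mice. None of these was called.

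The WT group after DSS leaned on 1 library. WT mouse 3 was the highest of its group in 31 of 34 members, and its B cell marker sum was 8.78 CPM against 1.33 to 2.17 CPM in the other 5 mice. Without it, 31 of 34 members were positive with a median of 0.32, and 4 were called higher, Vav1, Rgs13, Inpp5d and Fyb. Of these, Vav1, Inpp5d and Fyb are among the members listed as shared with leukocytes, and a leukocyte source of Rgs13 was not tested. Leaving out WT mouse 2 gave 10 of 34 positive, and leaving out WT mouse 1, KO mouse 1 or KO mouse 2 left 0 members called. Without KO mouse 3, 2 were higher and 2 lower. With the B cell score as a covariate 30 were positive, the median was 0.28 and 4 were called higher and 1 lower. In the same libraries T cell markers summed to 20.3 to 43.5 CPM in WT and 29.7 to 66.7 CPM in KO mice, and neutrophil and eosinophil markers to 0.628 to 5.02 and 2.71 to 35.6 CPM. Il25 gave 2 to 8 reads a mouse and Gng13 0 to 10.

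**Figure D4:**
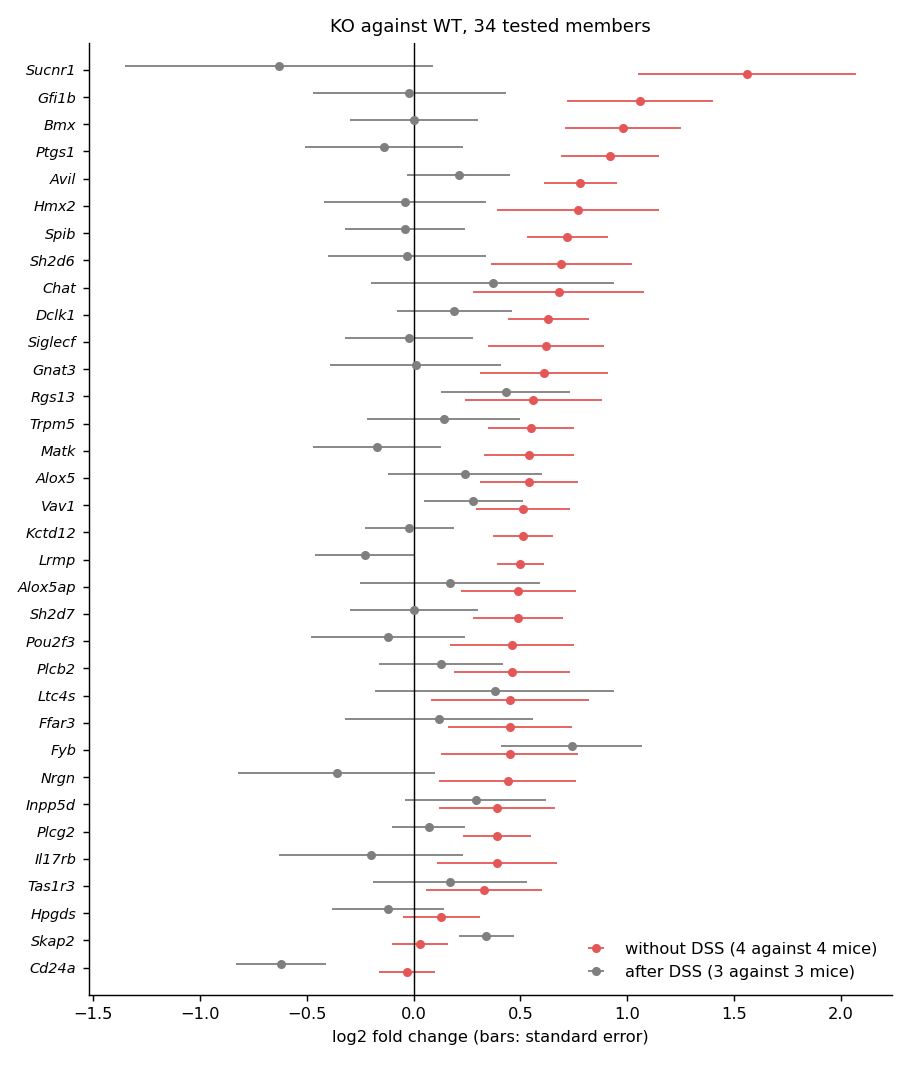
Log2 fold change of KO against WT with its standard error for the 34 tested members, without DSS (red) and after DSS (grey), ordered by the value without DSS. Without DSS 33 of 34 points lie to the right of 0 (median 0.51); after DSS 17 lie on each side.

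Outside the set after DSS, 17 other tuft genes were tested and 1 was called, Inpp5j, an inositol phosphatase, lower in KO mice (-0.29, SE 0.11). In the circuit list 9 genes were tested and 3 were called higher, where 3.98% of all genes were called higher and 3.25% lower. The 3 circuit genes were the lymphoid factors Rora (1.68, SE 0.34) and Gata3 (1.54, SE 0.50), both also made by T cells, and the growth factor Areg (1.07, SE 0.42). Il5 and Il13 had 0 reads in all 6 mice. None of the 11 tested eicosanoid genes outside the set was called.

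Mice given DSS were then set against mice without DSS within each genotype, over the 16370 genes tested in a fit of all 14 mice. The DSS mice come from a separate table, so DSS and experiment cannot be told apart, and both genotype comparisons share the libraries of the sections above. In KO mice 16 of 34 tested members were lower after DSS at an adjusted p below 0.05 (edgeR, Benjamini-Hochberg over all genes) and 1 was higher, where 22.7% of all genes were called lower and 23.2% higher. In WT mice 5 members were lower and 2 higher, against 18.1% and 20.2% of genes. The median log2 fold change over members was -0.77 in KO and -0.26 in WT mice, against -0.03 and -0.02 over all genes.

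Kctd12 fell furthest in both genotypes. On the scale of all 14 mice its mean in WT mice was 71.3 ± 10.4 CPM without DSS (SD, n = 4) and 29.4 ± 8.22 CPM after it (SD, n = 3). In KO mice the means were 101 ± 16.5 and 29 ± 5.33 CPM. The log2 fold changes were -1.28 (SE 0.19, adjusted p = 0.000204) and -1.80 (SE 0.20, adjusted p = 9.18e-06). Cd24a went from 603 ± 76.5 to 346 ± 68 CPM in WT and from 588 ± 79.7 to 225 ± 56.3 CPM in KO mice (-0.80 and -1.39, adjusted p = 0.00279 and 3.37e-05). Plcb2, Hpgds and Plcg2 were also lower in both, by -0.91, -0.73 and -0.47 in WT and -1.24, -0.98 and -0.78 in KO mice on the log2 scale. The other members lower in KO mice were the factors Pou2f3 (-1.34), Gfi1b (-1.25) and Hmx2 (-1.07), the markers Dclk1 (-0.91) and Avil (-0.82), the channel Trpm5 (-0.86), the receptor chain Il17rb (-1.04), Alox5 (-0.83), and the adaptors and kinase Sh2d6 (-1.27), Sh2d7 (-0.73) and Bmx (-1.06). Adjusted p ran from 0.00466 for Pou2f3 to 0.0472 for Alox5. These 11 were picked by this test in KO mice, so the separation of their KO groups adds nothing to it. They are also, by this sorting, the members that did not pass the adjusted test in WT mice, so that failure adds nothing either. Their log2 values in WT mice were -0.08 to -0.76, with overlapping groups. The tables list Sh2d6 at 1690 bases without and 1737 with DSS, and Sh2d7 at 3045 and 2759 bases, so their counts do not cover the same gene model.

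Skap2 was higher after DSS in both genotypes, from 54.2 ± 8.64 to 76.4 ± 5.26 CPM in WT and from 55.4 ± 8.31 to 96.7 ± 15.6 CPM in KO mice (0.49 and 0.80, adjusted p = 0.0138 and 0.000395). Lrmp was higher in WT mice alone at this cutoff, from 25.5 ± 1.93 to 38.6 ± 2.8 CPM (0.60, adjusted p = 0.0134), and in KO mice it was at 36 ± 4.02 and 32.8 ± 11.4 CPM (-0.13, adjusted p = 0.57). Epithelial marker sums were 10207 to 13605 CPM without DSS and 17213 to 21304 CPM after it. Of the 7 goblet cell markers, 4 had positive log2 values after DSS in each genotype. The medians were 0.14 in WT and 0.24 in KO mice. Clca1, Fcgbp and Spdef were lower, at -0.79, -1.09 and -0.82 in WT and -2.01, -1.71 and -0.97 in KO mice. Of these, only Clca1 in WT mice did not pass the adjusted test. The mucin Muc2 differed most between the experiments, at 22.1 to 164 CPM without DSS and 3549 to 7992 CPM after it. Of the 4 tested mast cell markers, 3 were positive in WT mice (median 0.23) and 0 in KO mice (median -1.87), and Kit, which other gut cells also make, was lower in both (-1.53 and -2.06). The part of these shifts in the members' values was not tested. WT mouse 3 decided much of the WT count: without it 7 members were lower at the adjusted cutoff, the median was -0.54 and 16 were lower at an unadjusted p below 0.05 in place of 6. Without WT mouse 2 of the DSS group 2 members were lower and the median was -0.04, and without WT mouse 1 of the DSS group or WT mouse 3 without DSS 3 were lower. In KO mice leaving out KO mouse 1 of the DSS group, or KO mouse 2 or 4 without DSS, gave 10 lower members.

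**Figure D5:**
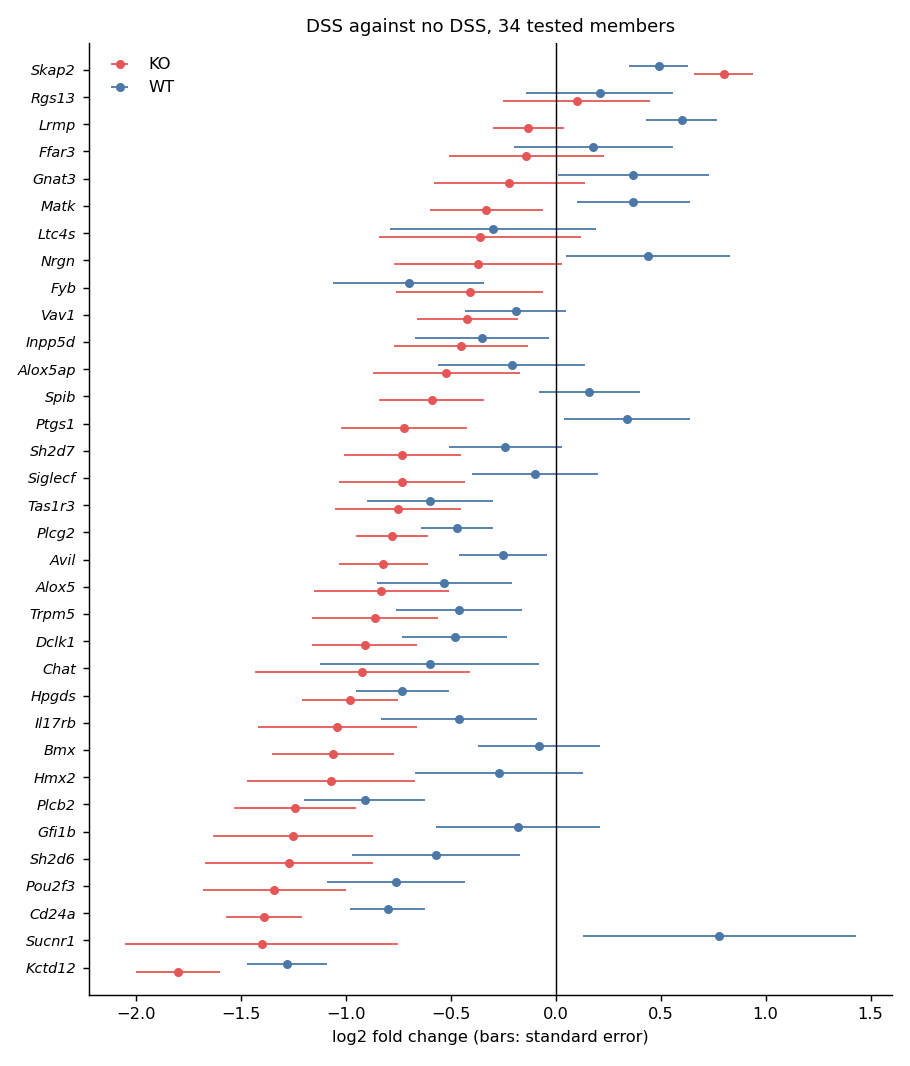
Log2 fold change of DSS against no DSS with its standard error for the 34 tested members in KO (red) and WT mice (blue), ordered by the KO value. In KO mice 32 of 34 points lie left of 0 (median -0.77), in WT mice 24 (median -0.26).

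Whether the DSS response differed between genotypes was tested directly as an interaction, in which a table difference shared by both genotypes cancels. None of the 34 members passed an adjusted p of 0.05, and the smallest was 0.987 (edgeR). The share of all genes passing was 0%. At an unadjusted p below 0.05, 6 members had a lower response in KO than in WT mice and 0 a higher one, against 2.3% and 1.73% of all genes, and 32 of 34 were negative with a median of -0.51 on the log2 scale. The 6 were Sucnr1 (-2.18, SE 0.92), Ptgs1 (-1.05, SE 0.42), Bmx (-0.97, SE 0.41), Spib (-0.76, SE 0.35), Lrmp (-0.72, SE 0.25) and Cd24a (-0.58, SE 0.25). All but Cd24a were also called higher in KO mice without DSS, which the interaction contains. For Dclk1, Trpm5 and Pou2f3 the differences were -0.44 (SE 0.35), -0.40 (SE 0.42) and -0.58 (SE 0.47). Without WT mouse 3 of the DSS group 1 member was called lower, 23 members were negative and the median was -0.14. Without KO mouse 1 of the DSS group 1 member was called, without KO mouse 2 of that group 2, without KO mouse 4 without DSS 2, without WT mouse 1 without DSS 3 and without WT mouse 2 of the DSS group 11.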

How the data were processed

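Total RNA was made into NEBNext Ultra Directional libraries. The authors deposited raw read counts per gene in 2 tables, 1 for each experiment, with gene lengths; HISAT2 and DESeq2 are named in the submitters' processing notes, and the genome build and strand setting of the counting were not given in the sources used here. Another 14 per-mouse FPKM columns and the authors' fold change and p-value columns were not used. Columns of the DSS table do not carry the labels' mouse numbers and are numbered by their place.

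Counts were tested with edgeR 4.0.16 (R 4.3.3; TMM, filterByExpr with a minimum count of 10 and total of 15, robust quasi-likelihood test), each table alone for genotype and all 14 mice for DSS and interaction, with Benjamini-Hochberg adjustment over all genes tested; the code was checked on simulated data. Called means past 0.05. The SE of a log2 fold change was derived from the test, as its absolute value divided by the square root of the F statistic. DESeq2 1.42.0, RLE scaling, no filter, all mice in 1 model, a B cell covariate, a replicate block and leaving out mice were alternatives. Members and lists were chosen with earlier results of these data known. In KO against WT without DSS, members past an unadjusted 0.05 or without group overlap, and 14 fixed members, are named with their values. Others are given by range or log2 fold change. In KO against WT after DSS, called members and the fixed ones other than Alox5ap, Hpgds and Ltc4s are named. For DSS against no DSS, members past an adjusted 0.05 are named. Genes of other lists are named past 0.05 or by their reads. Counts carry sampling error as well as mouse differences, and low genes are least precise.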

Additional observations from a re-analysis of the deposited data

Results flagged for a closer look

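Among 98 groups of 4 mice without DSS (members, the tuft-restricted sum and the marker lists), 7 held a mouse farther from the rest than Dixon's 95% limit; chance alone flags about 1 in 20 groups. In WT mice, mouse 1 was low in Sh2d7, at 8.31 CPM against 16 to 16.9, and in Alox5, at 5.95 CPM against 12.1 to 12.3. WT mouse 2 was high in Gfi1b, at 1.13 CPM against 0.61 to 0.669, and low in Nrgn, at 0.775 CPM against 1.83 to 1.93. WT mouse 3 was high in Chat, at 3.33 CPM against 1.31 to 1.39. KO mouse 4 was high in Gfi1b, at 2.29 CPM against 1.33 to 1.46, and in the neutrophil and eosinophil marker sum, at 6.45 CPM against 0.254 to 0.879.

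The DSS response differed between genotypes at an unadjusted p below 0.05 in the interaction for Sucnr1 (-2.18, KO minus WT on the log2 scale), Ptgs1 (-1.05), Bmx (-0.97), Spib (-0.76), Lrmp (-0.72) and Cd24a (-0.58). None passed the adjusted test (smallest adjusted p 0.987, edgeR).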

How the results depend on the processing

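Counts in this section have no share of all genes beside them, since those shares are given for the main fits only. The direction of the genotype difference without DSS was the same under every alternative run. Members called higher numbered 16 with RLE scaling, 17 without the filter and with DESeq2, 15 with the B cell covariate, 13 with all mice in 1 model and 9 to 19 when each mouse was left out, and 0 were lower in each. Leaving out WT mouse 1 and KO mouse 4, chosen after seeing the data, gave 8. Without the filter and with DESeq2, 1 member passed the adjusted test; leaving out mice gave 0 to 0. With the replicate block 18 members were called; the numbers did not pair the mice (correlations of same-numbered mice -0.029, 0.15, -0.205 and -0.112, and 1 of 8 mice closest to its own number). No paired analysis was possible after DSS because those columns do not carry the labels' numbers. The log2 ratio of summed levels was 0.58 without DSS, 0.44 to 0.68 with each mouse left out and 0.20 over all members, where Cd24a dominates. After DSS it was 0.07, and -0.12 to 0.42 with each mouse left out.

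After DSS, 2 members were higher without the filter and with DESeq2, 4 with the B cell covariate, and 0 to 4 with each mouse left out; lower were 0 to 2, adjusted 0 to 0. Under that covariate Pou2f3 turned to 0.11, and leaving out mice moved Dclk1 from -0.03 to 0.46, Trpm5 from -0.07 to 0.57 and Pou2f3 from -0.37 to 0.20. For DSS in KO mice, leaving out mice gave 10 to 18 lower members and 1 to 1 higher, in WT mice 2 to 7 lower and 1 to 2 higher. For the interaction it gave 1 to 11 lower and 0 to 1 higher, with Trpm5 at -0.61 to 0.02, and leaving out WT mouse 1 and KO mouse 4 gave 2 lower. The cause of these shifts was not tested. Low members such as Il25, Gng13 and Sucnr1 are limited by depth.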
